A study of Homo sapiens with 10 samples.

Results

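CCND1, MYEOV, TPCN2, FGF19, ANO1, FADD, PPFIA1, CTTN and SHANK2 are neighbours on band 11q13 of human chromosome 11. They were taken as the rows of the deposited expression table that carry these gene names, 9 of 58302 rows, each found once. The RNA came from KYSE-410 and KYSE-30, established lines of human esophageal squamous cell carcinoma, transfected with a small interfering RNA (siRNA) and collected after 48 h. Knockdown was with siSHIP2, directed at INPPL1 (which encodes the lipid phosphatase SHIP2), and the control siCT is non-targeting. The 4 groups were KYSE-410 with siCT (3 libraries), KYSE-410 with siSHIP2 (3), KYSE-30 with siCT (2) and KYSE-30 with siSHIP2 (2). No genetic change beyond those of the lines themselves is named in the labels. Another INPPL1 siRNA named in the design was not analysed here, so each comparison rests on 1 targeting siRNA.

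Band 11q13 is often gained in squamous carcinoma, and CCND1 is its best known gene. It encodes cyclin D1, which binds the kinases CDK4 and CDK6 so that they phosphorylate the retinoblastoma protein and release E2F factors for entry into S phase. The genes around it do other work: FGF19 is a secreted growth factor, FADD an adapter of death receptors, ANO1 a chloride channel opened by calcium, TPCN2 a cation channel of lysosomes, CTTN (cortactin) a protein of branched actin, PPFIA1 (liprin-alpha-1) and SHANK2 scaffolds, and MYEOV a gene named for its overexpression in myeloma. The comparisons ask how these genes differed between the lines and between siSHIP2 and siCT within each line.

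Values are counts scaled to a total of 1000000 in each library (CPM), so a gene's CPM is its share of the library. The values are whole multiples of 1 step that total 20009826 to 20022857 steps per library, so nearly equal totals that do not show the original depth. Of these steps 3, about 0.15 CPM, were taken as the floor. Differences are on the log2(CPM + 1) scale with their standard error (SE), from limma across the 20466 genes that reached 0.5 CPM in at least 2 libraries, and a gene was called when its Benjamini-Hochberg adjusted p over all of these genes was under 0.05. Of the 9 genes, 8 were tested, and FGF19 stayed under the filter. INPPL1 itself fell from 108 ± 1.16 to 40.4 ± 3.89 CPM in KYSE-410 (SD, n = 3) and from 38.0 ± 2.61 to 23.9 ± 0.930 in KYSE-30 (SD, n = 2). Its log2 differences were -1.402 (limma, adjusted p = 5.81e-10) and -0.65 (adjusted p = 0.000770). The fall was deeper in KYSE-410, with a difference between the lines of -0.75 (limma's test of the difference, adjusted p = 7.63e-05). Where the siSHIP2 effect on a gene differed between the lines, line and depth of knockdown therefore cannot be told apart. The KYSE-30 call was lost without siCT replicate 1 (adjusted p = 0.0585) or without siSHIP2 replicate 1 (adjusted p = 0.0607). In each group 7 of 9 markers of squamous epithelium averaged at least 1 CPM, but not the same 7 in both lines. KRT14 averaged 0.583 and 0.566 CPM in KYSE-410 with siCT and siSHIP2, and KRT5 averaged 0.2 CPM in both KYSE-30 groups. The 4 leukocyte markers together never passed 0.550 CPM. Since no label states whether replicates came from different cultures, the p-values speak only for variation among these libraries, which may be technical.

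In KYSE-410, siSHIP2 lowered CCND1, ANO1, MYEOV and SHANK2 and raised TPCN2 and PPFIA1. CCND1 fell to 70.2% of its siCT mean, MYEOV to 51.0% and ANO1 to 43.2%, while TPCN2 stood at 133% and PPFIA1 at 119.6%. These 6 of 8 tested genes passed limma's threshold, against 49.9% of all tested genes, of which 30.6% were higher and 19.3% lower. The share of the 8 is therefore to be read against a line in which about as many genes changed as did not. In KYSE-30 none of the 8 passed limma's threshold, where 2.36% of all tested genes did, and 1, MYEOV, had an unadjusted p under 0.05, as had 17.8% of all tested genes. By edgeR on the recovered whole numbers these counts of the 8 were also 0 and 1. In bulk RNA, fewer cells of a type and less RNA per cell cannot be told apart.

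CCND1 (ENSG00000110092) spans chr11:69641087-69654474 on the forward strand (hg38). Its values in KYSE-410 were 650, 633 and 605 CPM with siCT and 499, 392 and 434 CPM with siSHIP2. Every siSHIP2 library lay below every siCT library, and the siSHIP2 libraries were spread more widely. The means were 629 ± 22.8 and 442 ± 53.8 CPM (SD, n = 3), a log2 difference of -0.52 (SE 0.0703, limma, adjusted p = 1.61e-05). In KYSE-30 the values were 435 and 466 CPM with siCT and 435 and 474 CPM with siSHIP2. These groups overlapped, and the log2 difference of 0.01 had a 95% interval of -0.17 to 0.19. The effect in KYSE-410 was lower than that in KYSE-30 by -0.53 (SE 0.111, limma's test of the difference, adjusted p = 0.00186). With siSHIP2 the KYSE-410 libraries held a CCND1 level within 392 to 499 CPM, a range that takes in all 4 KYSE-30 libraries.

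**Figure D1:**
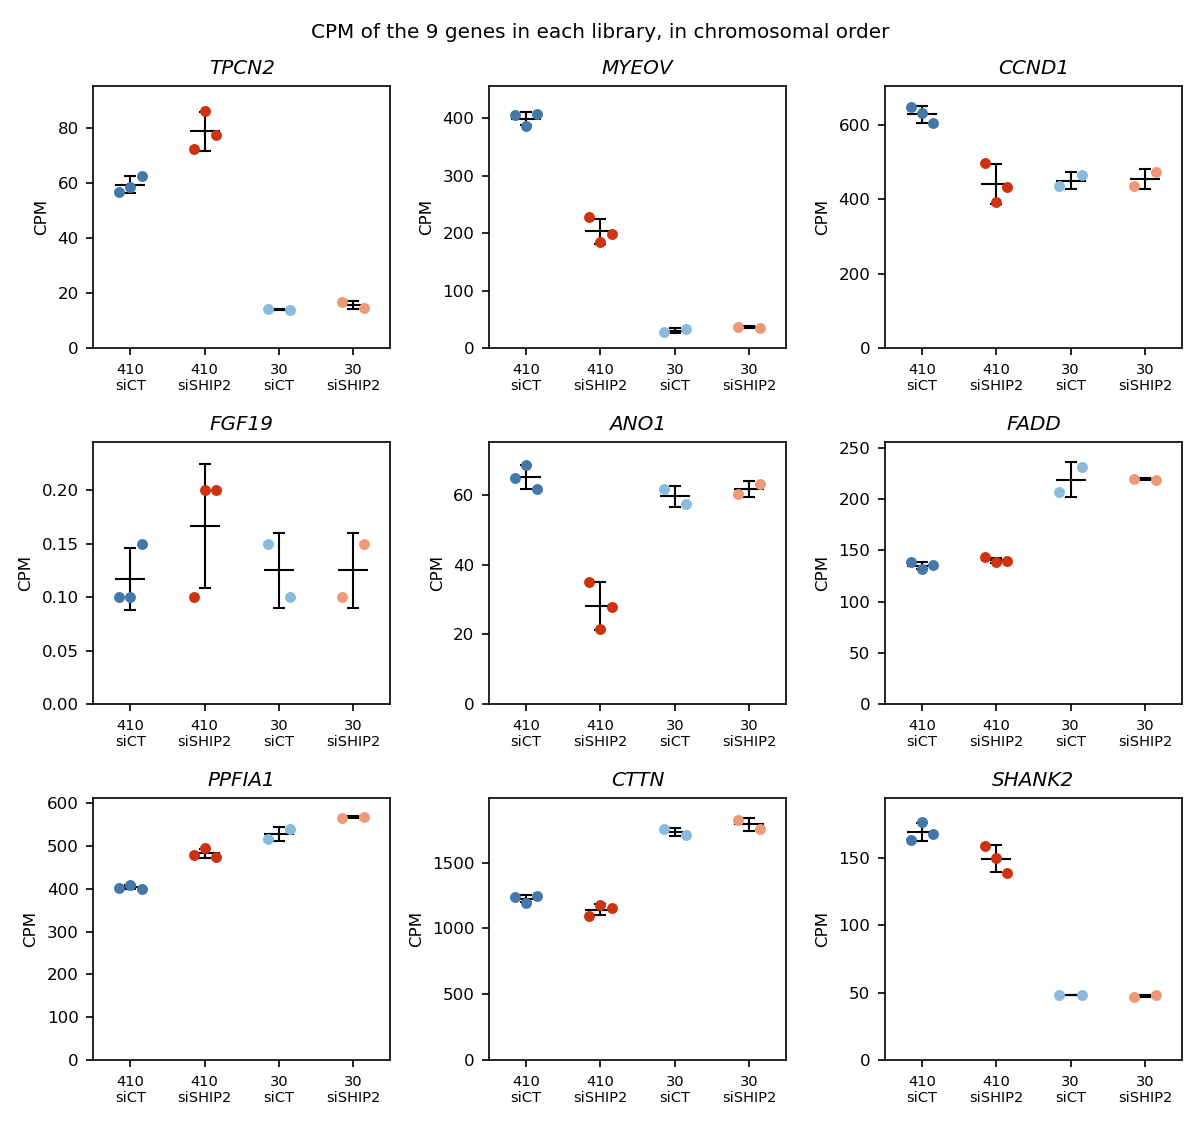
CPM of the 9 genes in each library, in chromosomal order, with 1 panel per gene and an axis from 0. Points are libraries (KYSE-410 siCT dark blue, KYSE-410 siSHIP2 red, KYSE-30 siCT light blue, KYSE-30 siSHIP2 orange), lines are group means and bars the SD; in KYSE-410 the ANO1 means are 65.1 and 28.1 CPM and the MYEOV means 399 and 204 CPM, while the KYSE-30 groups lie close together.

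FGF19 (ENSG00000162344, chr11:69698232-69704642, reverse strand), the nearest protein-coding neighbour among the 9 and a ligand of FGFR4, was near the floor in every library. It read 0.1, 0.1 and 0.150 CPM in KYSE-410 with siCT and 0.1, 0.200 and 0.200 CPM with siSHIP2. In KYSE-30 it read 0.150 and 0.1 CPM with siCT and 0.1 and 0.150 CPM with siSHIP2. A difference between groups was not detectable at this depth.

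MYEOV (ENSG00000172927, chr11:69294138-69367726, forward strand) read 405, 386 and 407 CPM in KYSE-410 with siCT. With siSHIP2 it read 227, 184 and 199 CPM. The groups did not overlap, with means of 399 ± 11.7 and 204 ± 21.8 CPM (SD, n = 3). The log2 difference was -0.97 (SE 0.0744, limma, adjusted p = 5.35e-08). In KYSE-30 the values were 27.1 and 32.9 CPM with siCT and 37.4 and 35.2 CPM with siSHIP2. The log2 difference there was 0.27 and did not pass (SE 0.0911, limma, adjusted p = 0.121). The difference between the lines was -1.25 (SE 0.118, limma, adjusted p = 3.40e-06).

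ANO1 (ENSG00000131620, chr11:70078302-70189528, forward strand) gave 64.9, 68.6 and 61.8 CPM in KYSE-410 with siCT and 35.1, 21.4 and 27.7 CPM with siSHIP2. The siSHIP2 libraries lay well below the siCT libraries and differed among themselves, from 21.4 CPM in replicate 2 to 35.1 CPM in replicate 1. The log2 difference of -1.21 was the largest of the 8 in this line (SE 0.115, limma, adjusted p = 4.06e-07). In KYSE-30 the values were 61.8 and 57.4 CPM with siCT and 60.1 and 63.3 CPM with siSHIP2. These overlapped, with a difference of 0.05 and a 95% interval of -0.25 to 0.35. The difference between the lines was -1.26 (SE 0.181, limma, adjusted p = 9.64e-05). CCND1, ANO1 and MYEOV were the 3 of 8 genes whose siSHIP2 effect differed between the lines, all lower in KYSE-410, against 32.4% of all tested genes called and 12.9% called lower.

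**Figure D2:**
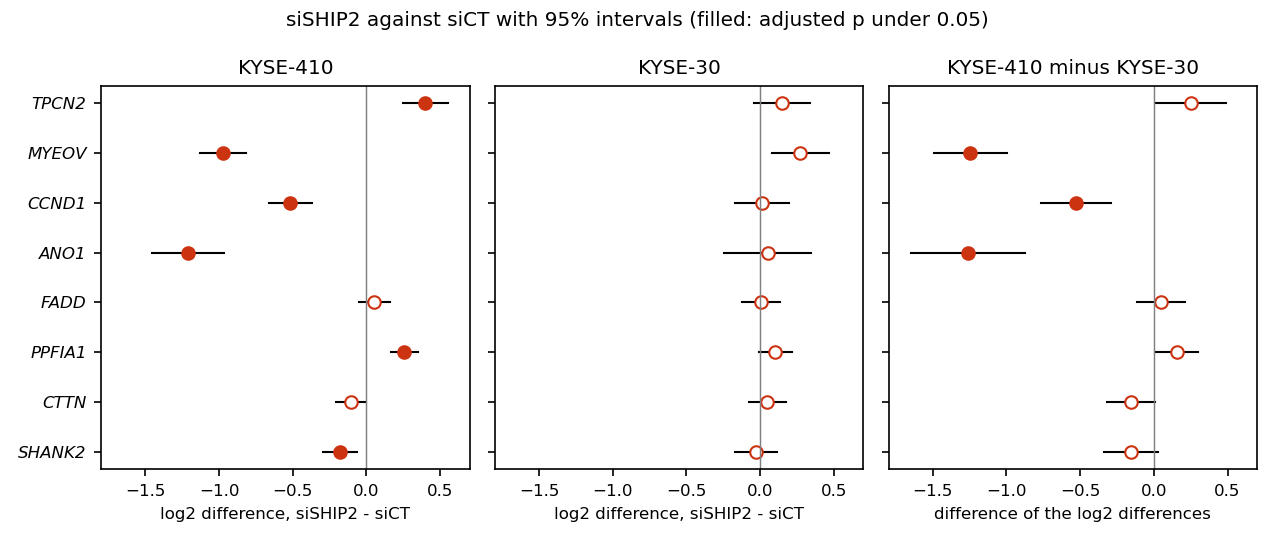
Log2 differences of siSHIP2 against siCT in KYSE-410 (left) and KYSE-30 (middle) and the difference between these (right) for the 8 tested genes, in chromosomal order. Points are limma estimates, bars 95% intervals, and filled points have an adjusted p under 0.05; in the right panel only MYEOV (-1.25), CCND1 (-0.53) and ANO1 (-1.26) are filled.

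TPCN2 and PPFIA1 rose in KYSE-410. TPCN2 (ENSG00000162341, chr11:69048897-69162440, forward strand) read 56.6, 58.6 and 62.6 CPM with siCT and 72.3, 86.1 and 77.5 CPM with siSHIP2, with no overlap. Its log2 difference was 0.40 (SE 0.0723, limma, adjusted p = 0.000244). PPFIA1 (ENSG00000131626, chr11:70270700-70385312, forward strand) read 403, 409 and 400.0 CPM with siCT and 480, 495 and 474 CPM with siSHIP2. Its log2 difference was 0.26 (SE 0.0432, limma, adjusted p = 0.000122), and its libraries within each group were close to each other. With TMM scaling the PPFIA1 difference was 0.14 (limma, adjusted p = 0.0401), and by edgeR it was 0.16. In KYSE-30 TPCN2 read 13.99 and 13.69 CPM with siCT and 16.5 and 14.4 CPM with siSHIP2. PPFIA1 read 517 and 540.1 CPM with siCT and 566 and 569 CPM with siSHIP2 in that line. Neither gene passed in KYSE-30, with adjusted p of 0.407 and 0.329 by limma. The differences between the lines did not pass either, with 95% intervals of 0.01 to 0.49 for TPCN2 and 0.01 to 0.30 for PPFIA1 and adjusted p of 0.108 and 0.0965 by limma. Without KYSE-410 siSHIP2 replicate 1 the TPCN2 difference between lines passed (0.31, adjusted p = 0.0398).

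SHANK2 fell slightly in KYSE-410, and CTTN and FADD did not pass. SHANK2 (ENSG00000162105, chr11:70467856-71252577, reverse strand) read 163, 177 and 167 CPM with siCT and 159, 150.1 and 139 CPM with siSHIP2. It fell by 0.18 on the log2 scale (SE 0.0547, limma, adjusted p = 0.0119), and by 0.30 with TMM scaling. This call was lost without siCT replicate 2 (adjusted p = 0.0686) or without siSHIP2 replicate 3 (adjusted p = 0.0761). CTTN (ENSG00000085733, chr11:70398404-70436584, forward strand), the highest of the 9, read 1242, 1196 and 1244 CPM with siCT and 1094, 1177 and 1155 CPM with siSHIP2. Each siSHIP2 library was below each siCT library, and the log2 difference of -0.10 did not pass (SE 0.0485, limma, adjusted p = 0.0870). With TMM scaling, which moved the median of all tested genes in this line from 0.07 to -0.01, CTTN passed as lower (-0.22, limma, adjusted p = 0.00185). FADD (ENSG00000168040, chr11:70203163-70207390, forward strand) read 138, 132 and 135 CPM with siCT and 143, 138 and 139 CPM with siSHIP2. Its difference of 0.05 had a 95% interval of -0.05 to 0.16 (limma, adjusted p = 0.397) and turned to -0.07 with TMM scaling.

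In KYSE-30 these 3 genes gave no call. CTTN read 1753 and 1710 CPM with siCT and 1827 and 1755 CPM with siSHIP2. FADD read 207 and 231 CPM with siCT and 219.9 and 219 CPM with siSHIP2. SHANK2 read 48.2 and 48.3 CPM with siCT and 46.7 and 47.9 CPM with siSHIP2. The FADD groups overlapped, and those of CTTN and SHANK2 were separated by less than 3 CPM. Their log2 differences were 0.05 for CTTN, 0.01 for FADD and -0.03 for SHANK2, with adjusted p from 0.743 to 0.995 by limma.

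The 3 KYSE-410 siSHIP2 libraries did not depart equally from the controls. For CCND1, ANO1, MYEOV and TPCN2 replicate 1 was nearest to the siCT level, replicate 3 came next and replicate 2 was farthest. That order held in 4 of the 6 called genes, and in 40.3% of the 10205 genes called in this line. INPPL1 itself read 44.7, 37.3 and 39.1 CPM in replicates 1, 2 and 3, and replicate 1 was also the library nearest to the siCT level in 5 of the 6 called genes, against 58.8% of all called genes. The part of this residual level in the spread was not tested. No call among CCND1, ANO1, MYEOV, TPCN2 and PPFIA1 in KYSE-410 was lost when any 1 of the 10 libraries was left out.

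The printed promoters belong to the pair of genes that rose in KYSE-410, PPFIA1 and TPCN2, and to FADD, which did not pass. They are RefSeq windows on GRCh38.p14, forward strand, from 250 bases before to 50 bases after the gene start, and they could be matched for 4 of the 9 genes, ANO1 being the other. The ANO1 window starts from a RefSeq start 92.4 kb upstream of the start in the gene annotation used here, so it is not shown. Capitals mark GGGCGG on either strand, the GC box bound by SP1 family factors.
PPFIA1 chr11:70270440-70270739: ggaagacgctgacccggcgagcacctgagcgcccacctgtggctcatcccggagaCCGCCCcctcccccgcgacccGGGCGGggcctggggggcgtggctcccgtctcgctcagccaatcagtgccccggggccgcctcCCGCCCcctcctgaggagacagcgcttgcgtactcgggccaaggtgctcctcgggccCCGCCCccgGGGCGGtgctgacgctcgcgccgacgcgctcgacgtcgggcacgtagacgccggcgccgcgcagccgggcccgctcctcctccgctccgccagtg
TPCN2 chr11:69048682-69048981: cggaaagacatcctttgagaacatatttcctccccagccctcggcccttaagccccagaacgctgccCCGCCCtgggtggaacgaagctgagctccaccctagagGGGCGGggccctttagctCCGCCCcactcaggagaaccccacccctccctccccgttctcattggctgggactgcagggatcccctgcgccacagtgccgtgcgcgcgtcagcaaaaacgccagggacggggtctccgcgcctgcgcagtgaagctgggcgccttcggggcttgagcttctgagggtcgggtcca
FADD chr11:70203046-70203345: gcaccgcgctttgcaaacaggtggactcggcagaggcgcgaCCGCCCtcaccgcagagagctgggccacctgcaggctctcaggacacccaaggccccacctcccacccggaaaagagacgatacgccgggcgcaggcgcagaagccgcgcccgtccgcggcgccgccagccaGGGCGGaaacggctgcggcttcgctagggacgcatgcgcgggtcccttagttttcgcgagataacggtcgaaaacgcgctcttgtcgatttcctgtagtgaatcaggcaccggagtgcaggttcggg
GGGCGG occurred at 5 positions in the PPFIA1 window, 3 in that of TPCN2 and 2 in that of FADD. Of 35116 human promoter windows of the same length 45% hold it at least once, a share that gives no scale for the number of positions. The ANO1 window, not shown, held it at 4 positions and had a GC content of 76%. CCAAT on either strand, held by 34.6% of the windows, occurred once in each of the PPFIA1 and TPCN2 windows and not in that of FADD. TGANTCA, held by 7.71%, occurred once in that of FADD. The TATA box TATAAA (in 11.5% of all windows), the cyclic AMP element TGACGTCA (1.85%), the forkhead motif GTAAACA (3.42%), the E-box CACGTG (7.26%), the E2F motif TTTCCCGC (1.63%) and the TEAD motif GGAATG (4928 of 35116 windows) were searched on both strands too and had no match in these 3 windows. GC content was 77.7% for PPFIA1, 66.0% for TPCN2 and 66.7% for FADD, with a median of 58.7% over all windows.

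With siCT, the lines differed in the level of most of these genes. MYEOV was 13.3-fold, TPCN2 4.28-fold, SHANK2 3.51-fold and CCND1 1.40-fold higher in KYSE-410 than in KYSE-30, as ratios of mean CPM. FADD, CTTN and PPFIA1 were lower in KYSE-410, at 61.7%, 70.9% and 76.4% of the KYSE-30 mean. These 7 of 8 genes passed limma's threshold, 4 higher and 3 lower, against 75.9% of all tested genes (37.2% higher and 38.7% lower). ANO1 did not pass, with a log2 difference of 0.13 and a 95% interval of -0.15 to 0.40 (limma, adjusted p = 0.384). The log2 difference was 3.70 for MYEOV (SE 0.0832, adjusted p = 4.60e-16), 2.02 for TPCN2 (SE 0.0809, adjusted p = 6.76e-13) and 1.79 for SHANK2 (SE 0.0612, adjusted p = 9.04e-14). It was 0.48 for CCND1 (SE 0.0786, adjusted p = 3.28e-05), -0.69 for FADD, -0.50 for CTTN and -0.39 for PPFIA1. All 7 kept their call and direction when any 1 library was left out and under each scaling.

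Divided by the union of their annotated exons, in CPM per kb, the order of the genes differed between the lines at 2 places. In KYSE-410 with siCT the order was CTTN at 177, CCND1 at 130.3, MYEOV at 106, FADD at 73.4, PPFIA1 at 34.5, ANO1 at 10.8, SHANK2 at 9.01, TPCN2 at 5.76 and FGF19 at 0.0477 CPM per kb. In KYSE-30 with siCT it was CTTN at 249, FADD at 119, CCND1 at 93.3, PPFIA1 at 45.2, ANO1 at 9.89, MYEOV at 7.98, SHANK2 at 2.57, TPCN2 at 1.35 and FGF19 at 0.0511 CPM per kb. CCND1 and FADD exchanged places, and MYEOV stood next to CCND1 in KYSE-410 and below ANO1 in KYSE-30. The median over tested genes with an annotated length was 3.92 CPM per kb in KYSE-410 siCT and 3.82 in KYSE-30 siCT. CTTN ranked 184th and CCND1 308th of 20390 genes on this scale in KYSE-410 siCT, and 120th and 487th in KYSE-30 siCT. Neighbours in the order overlapped in 1 case, SHANK2 and TPCN2 in KYSE-410 with siSHIP2, at 7.95 and 7.65 CPM per kb. Together the 9 genes held 0.309% of the counts in KYSE-410 siCT, 0.267% in KYSE-410 siSHIP2, 0.308% in KYSE-30 siCT and 0.319% in KYSE-30 siSHIP2.

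Along the chromosome the line differences changed sign within a short distance. With siCT, TPCN2, MYEOV and CCND1 and their neighbours LTO1 (named ORAOV1 in the table, log2 difference 0.56) and FGF3 (1.36) were higher in KYSE-410. FGF3 averaged 1.57 CPM there and was at 0 in all KYSE-30 libraries, so its log2 value depends on the added 1 CPM. ANO1 did not pass, FADD, PPFIA1 and CTTN were lower, SHANK2 was higher again, and the cholesterol synthesis gene DHCR7 (-2.01) and the NAD synthetase gene NADSYN1 (-2.46) were lower. Within 3 Mb of the CCND1 start 217 genes are annotated and in the table, and 100 were tested. Of these, 78 differed between the lines with siCT, 48 higher and 30 lower in KYSE-410, near the 75.9% of all tested genes, with a median log2 difference of 0.18 against -0.02 over all tested genes. On this scale GSTP1 and GAL differed most, and MYEOV (3.70) came next. GSTP1, a glutathione transferase, averaged 5.95 CPM in KYSE-410 and 398 CPM in KYSE-30 (-5.85), and the neuropeptide gene GAL averaged 0.1 and 22.6 CPM (-4.42). SYT12 (3.58) and LRFN4 (3.42) were higher in KYSE-410. DNA copy number was not analysed here.

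Under siSHIP2 in KYSE-410, 54 of the 100 window genes were called, near the 49.9% of all tested genes. Of these 20 were higher and 34 lower, against 30.6% higher and 19.3% lower of all tested genes, with a median of -0.03 against 0.07. The 100 include the siRNA target INPPL1, the 8 tested of the 9 genes and opposite-strand rows that share their exons. With TMM scaling the split was 13 higher and 42 lower, against 4084 higher and 5295 lower of all 20466 tested genes. CPT1A (-0.65), the carnitine palmitoyltransferase of fatty acid oxidation, and the WNT co-receptor LRP5 (-0.47) fell, IGHMBP2 rose (0.33, or 0.22 with TMM scaling), and PPP6R3 (0.06) and MRPL21 (0.01) did not pass. Farther away on 11q, 4 chosen genes were tested, 6.80 to 8.57 Mb from the CCND1 start. EMSY fell (-0.47), RSF1 rose (0.30), and PAK1 (0.0045) and GAB2 (0.013) did not pass. LTO1, adjacent to CCND1 on the other strand, gave -0.12 (limma, adjusted p = 0.0480), or -0.23 with TMM scaling. The call was lost without any 1 of the 6 KYSE-410 libraries. In KYSE-30, 3 of the 100 were called, INPPL1 and KMT5B (-0.51) lower and AP000808.2 (0.50) higher, the last pair named after their values were seen. This share is near the 2.36% of all tested genes. With TMM scaling or edgeR 2 were called, both lower, and without 1 library 0 to 4, with 0 when KYSE-30 siSHIP2 replicate 1 was left out.

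**Figure D3:**
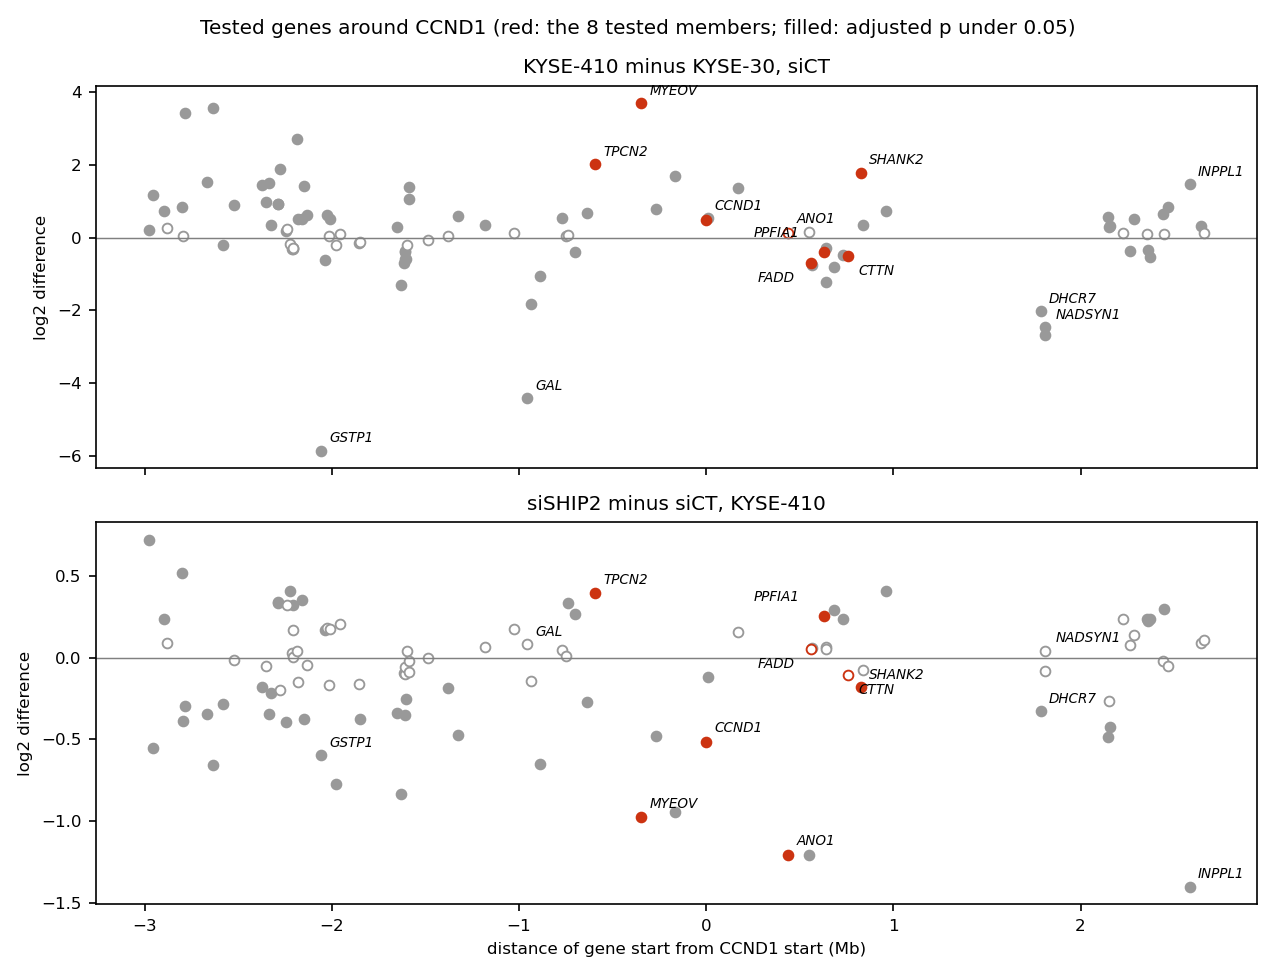
Log2 differences of the 100 tested genes whose start lies within 3 Mb of the CCND1 start, against distance in Mb. The upper panel shows KYSE-410 minus KYSE-30 with siCT and the lower panel siSHIP2 minus siCT in KYSE-410; red points are the 8 tested genes, filled points have an adjusted p under 0.05, and genes next to each other lie on both sides of 0.

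Rows on the opposite strand share exon bases with several of the 9 genes. Whether reads were counted by strand is not given in the sources used here, so reads of such pairs may not be told apart. All 1011 exon bases of AP000879.1 lie within exons of FADD, and this row read 91.0% to 95.1% of the FADD value in each library. All 646 exon bases of ANO1-AS1 lie within exons of ANO1, and it read 16.6% to 21.4% of the ANO1 value in each library. Both rows moved with their partner, ANO1-AS1 by -1.21 in KYSE-410 (limma, adjusted p = 1.53e-06), where ANO1 gave -1.21. LTO1 shares 497 bases with CCND1, 6.31% of its own exon bases. It read 23.9% to 39.4% of the CCND1 value, and this share was higher in KYSE-410 siSHIP2 (34.8%) than in KYSE-410 siCT (26.5%). PPFIA1 shares 549 bases with AP000487.1 and 141 with AP002336.3, at 15.1% to 17.7% and 4.31% to 6.45% of its value.

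**Figure D4:**
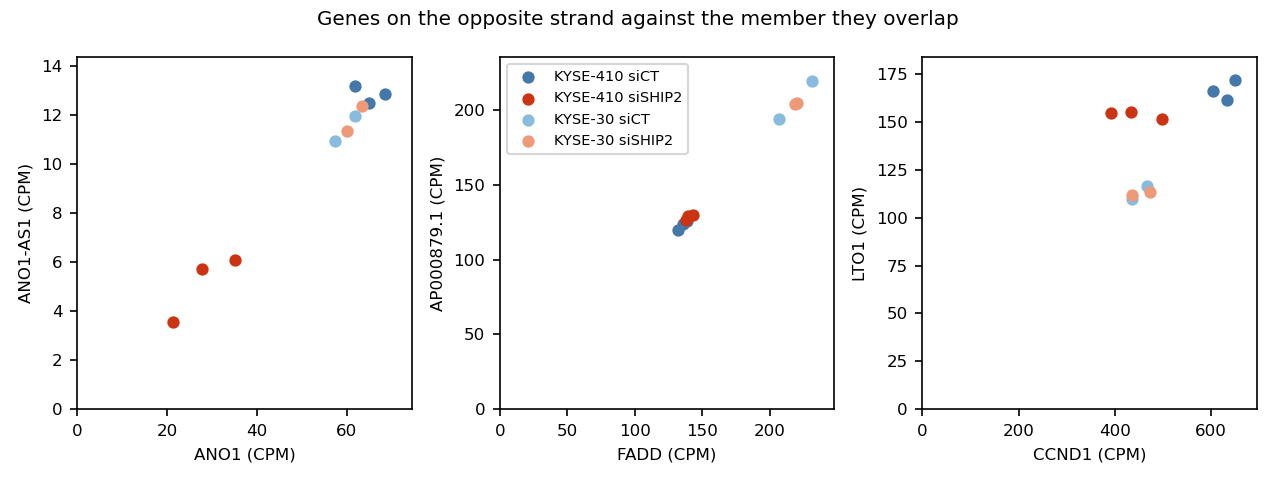
CPM of 3 opposite-strand genes against the CPM of the gene whose exons they overlap, with 1 point per library and axes from 0. ANO1-AS1 and AP000879.1 lie near a line through the origin with ANO1 and FADD, at 16.6% to 21.4% and 91.0% to 95.1%, while LTO1 varies from 23.9% to 39.4% of CCND1.

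Partners of the 9 gene products were read from 7 lists that together hold 103 further genes in the table, 91 of them tested. In KYSE-410, siSHIP2 changed 65 of the 91, against 49.9% of all tested genes, 37 higher and 28 lower, with a median log2 difference of 0.08. With TMM scaling the split was 21 higher and 32 lower. In KYSE-30, 4 of the 91 were called, 3 higher and 1 lower, against 2.36% of all tested genes. The siSHIP2 effect differed between the lines for 45, against 32.4%, and 69 differed between the lines with siCT, a share near the 75.9% of all tested genes.

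In KYSE-410, where CCND1 was lower, more partners of cyclin D1 were called higher than lower. Of 22 tested genes of the cyclin D and retinoblastoma pathway 18 were called, 15 higher and 3 lower, against 49.9% of all tested genes (30.6% higher), with a median of 0.29. With TMM scaling 9 were higher and 4 lower. CDKN2B, the CDK4 and CDK6 inhibitor p15, rose from 46.9 ± 3.09 to 101 ± 6.49 CPM (1.09, SE 0.0713, limma, adjusted p = 1.34e-08). CDKN1B, the inhibitor p27, rose from 61.6 ± 1.92 to 95.6 ± 5.34 CPM (0.62, adjusted p = 1.11e-06). CDKN2D, the inhibitor p19, rose from 6.31 ± 0.0577 to 11.7 ± 0.952 CPM (0.80, adjusted p = 2.63e-06). CDKN1A, the inhibitor p21, moved the other way, from 162 ± 2.14 to 134 ± 5.70 CPM (-0.27, adjusted p = 0.000168; all SD, n = 3). Inhibitors of these kinases were thus found on both sides.

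The factors downstream of cyclin D also changed in KYSE-410. E2F1 rose from 27.2 ± 1.07 to 42.4 ± 5.12 CPM and E2F2 from 14.7 ± 0.840 to 23.4 ± 2.61 CPM. RB1, the retinoblastoma gene, gave 0.29 (limma, adjusted p = 0.00115) and RBL2, its relative p130, 0.24 (adjusted p = 0.00378), and both calls were lost with TMM scaling (adjusted p = 0.0736 and 0.172). The D-type cyclin CCND3 gave 0.17 (adjusted p = 0.0203), lost with TMM scaling (adjusted p = 0.508) and without siCT replicate 2, siCT replicate 3 or siSHIP2 replicate 2. CCND2 was at or under 0.1 CPM in every library. CCNE1 (cyclin E1), at 4.03 CPM with siCT, fell by 0.60 on the log2 scale. The kinases CDK4 (0.04, adjusted p = 0.552) and CDK6 (-0.08, adjusted p = 0.271) and the inhibitor gene CDKN2A (-0.06, adjusted p = 0.531) did not pass. CDK6 passed as lower with TMM scaling (-0.20, adjusted p = 0.0308). In KYSE-30 3 of the 22 tested genes of the list were called, against 2.36% of all tested genes. E2F1 (0.45) and E2F2 (0.43) were higher and RBL2 (-0.30) lower. Each of these calls was lost when 1 of several libraries was left out (adjusted p up to 0.287, 0.404 and 0.361 by limma).

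**Figure D5:**
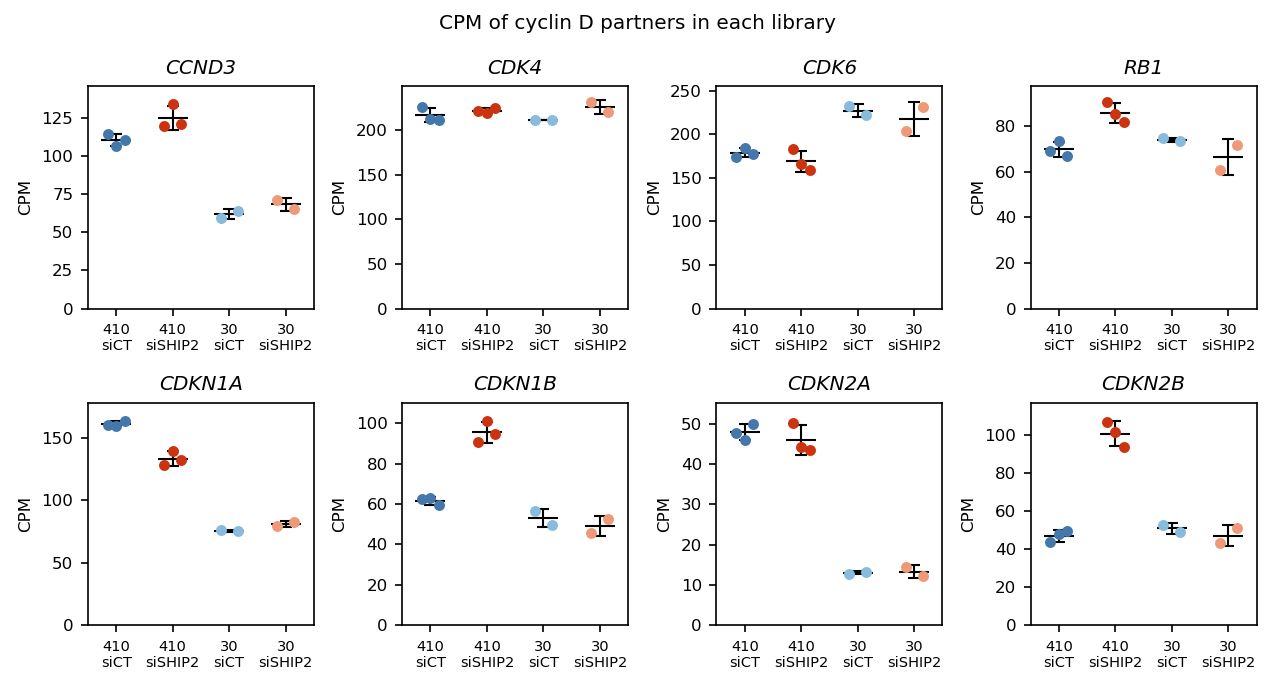
CPM of 8 cyclin D partners in each library, with 1 panel per gene and an axis from 0. Points are libraries, lines group means and bars the SD; CDKN2B and CDKN1B are higher in KYSE-410 siSHIP2 (101 and 95.6 CPM) than in the other groups, and in KYSE-410 the siSHIP2 and siCT libraries overlap for CDK4 and CDK6.

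Of the death receptor partners of FADD, 8 of 13 tested genes were called in KYSE-410, 4 higher and 4 lower, against 49.9% of all tested genes. The receptor genes FAS (-0.92, 12.3 to 6.13 CPM), TNFRSF1A (-0.63, 225 to 146 CPM) and TNFRSF10A (-0.42, 20.8 to 15.3 CPM) fell. CFLAR, which competes with caspase-8 on FADD, rose (0.43), while CASP8 did not pass (-0.02, adjusted p = 0.785). TNFRSF10B gave 0.22, lost with TMM scaling (adjusted p = 0.268). None of the 13 was called in KYSE-30, where 2.36% of all tested genes were. Of 7 tested genes around FGF19, 2 were called. FGFR2 fell (-0.77, 27.6 to 16.0 CPM), and FRS2 gave 0.19, a call lost with TMM scaling and without 1 of 6 libraries in turn (adjusted p up to 0.168). FGFR4 (2.43 to 1.90 CPM) and its co-receptor gene KLB (0.716 to 0.633 CPM), which FGF19 acts through, did not pass in KYSE-410, although FGFR4 passed as lower with TMM scaling (-0.33, adjusted p = 0.0155).

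Among 10 tested relatives and partners of ANO1 and TPCN2, 6 were called in KYSE-410, 2 higher and 4 lower, a share near the 49.9% of all tested genes. ANO10 (-0.95, 42.1 to 21.4 CPM) and ANO6 (-0.15, 195 to 176 CPM), both of the anoctamin family of ANO1, fell, as did TPCN1 (-0.53, 35.5 to 24.4 CPM), the relative of TPCN2, and JPT2 (-0.28). ANO6 gave -0.27 with TMM scaling, and its call was lost without siCT replicate 2, siSHIP2 replicate 2 or siSHIP2 replicate 3 (adjusted p up to 0.166). TPCN1 thus fell in the line in which TPCN2 rose, and it was higher in KYSE-30 (85.9 CPM) than in KYSE-410 (35.5 CPM) with siCT, the reverse of TPCN2.

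Around cortactin, 15 of 20 tested genes of branched actin were called in KYSE-410, against 49.9% of all tested genes. Of these 9 were higher and 6 lower, a balance that turned to 6 and 7 with TMM scaling and to 7 and 7 by edgeR. DNM2, the dynamin that binds cortactin, fell from 180.1 to 87.99 CPM (-1.02, SE 0.0443, limma, adjusted p = 3.24e-10). The kinase gene SRC (-0.28) and the invadopodia scaffold gene SH3PXD2A (-0.66) fell, CTTNBP2NL rose (0.84), and WASL (0.08) and ARPC1B (-0.06) did not pass, although ARPC1B passed as lower with TMM scaling (adjusted p = 0.00730). Of 12 tested genes of the liprin complexes, 10 were called, 4 higher and 6 lower, or 2 and 7 with TMM scaling. ERC1 rose from 44.9 to 79.5 CPM (0.81), and PTPRF, the receptor phosphatase bound by liprins, fell from 431 to 266 CPM (-0.70). PPFIBP1, a liprin-beta gene, gave -0.19 (-0.31 with TMM scaling), a call lost without siCT replicate 2 or siSHIP2 replicate 3 (adjusted p up to 0.0605). KANK1 fell (-0.84, 19.8 to 10.6 CPM) and was near 0 in KYSE-30. Of 7 tested genes of SHANK scaffolds, 6 were called, 2 higher and 4 lower, and 4 with TMM scaling or edgeR, all lower. HOMER2 (-0.97), HOMER3 (-0.64) and SHANK3 (-0.49) were among those that fell, and SHANK1 was at or under 0.150 CPM in every library. HCLS1, the blood cell relative of cortactin, was at or under 0.750 CPM. In KYSE-30, where 2.36% of all tested genes were called, SH3PXD2B (0.49) was the only call in these 3 lists. It was lost without any 1 of 3 KYSE-30 libraries.

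Outside the 9 genes, those whose levels ran most like that of CCND1 over the 10 libraries were GINS1, FAS, GPR39, DYM and FAM83D, the first 5 of 11465 tested genes with a mean of at least 5 CPM. Pearson's r of log2(CPM + 1) was 0.985, 0.983, 0.982, 0.981 and 0.976. These points share their libraries and fall into 4 groups, so r describes the group pattern of higher values in KYSE-410 siCT than in the other 3 groups. GINS1, a subunit of the replicative helicase, averaged 103 CPM in KYSE-410 siCT, 60.5 in KYSE-410 siSHIP2, 63.0 in KYSE-30 siCT and 59.0 in KYSE-30 siSHIP2.

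The summed squamous markers read 426 to 447 CPM in KYSE-410 siCT and 325 to 369 CPM in KYSE-410 siSHIP2. In KYSE-30 they read 352 to 414 CPM with siCT and 375 to 377 CPM with siSHIP2. In KYSE-410 4 of the 8 tested markers were called, all lower, against 49.9% of all tested genes called and 19.3% called lower. These were KRT5, KRT6A, SFN and TRIM29, while KRT14, TP63, SOX2 and DSG3 did not pass. In KYSE-30 2 of the 8 were called, both lower, against 2.36% of all tested genes called. These were TP63 (46.2 to 31.1 CPM, -0.55, limma, adjusted p = 0.0142) and SOX2 (6.20 to 2.47 CPM, -1.04, adjusted p = 0.00348). The 5 fibroblast markers summed to 106 to 128 CPM in KYSE-410 siCT, 92.1 to 98.3 CPM in KYSE-410 siSHIP2 and 5.95 to 6.80 CPM in KYSE-30, most of it LUM in KYSE-410. The 3 tested ones were all called in KYSE-410, in both directions, against 49.9% of all tested genes. LUM (107 to 80.4 CPM) and DCN (1.33 to 0.883 CPM) were lower and COL1A1 (10.2 to 14.2 CPM) higher. The 6 glandular markers summed to 12.99 to 15.04 CPM in KYSE-410 siCT and 21.33 to 24.04 CPM in KYSE-410 siSHIP2. In each of these groups 1 of the 6, VIL1, averaged 1 CPM or more. VIL1 averaged 13.3 CPM with siCT and 21.4 CPM with siSHIP2 and was called higher (0.65, limma, adjusted p = 4.23e-05). Another 2 of the 6 were at 0 in all libraries of the group, CDX2 and TFF3 with siCT and CDX2 and CDH17 with siSHIP2. The 3 endothelial markers stayed within 6.95 CPM and the leukocyte markers within 0.550 CPM in every library. The part of these differences in the results above was not tested.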

How the data were processed

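Total RNA of 10 libraries was read from 1 table that the authors deposited, with CPM for 58302 genes. The submitters' processing notes name STAR 2.5.3a, HTSeq and the build hg38 behind these deposited values. The use of strand and the scaling before CPM are not given in the sources used here. Values are whole multiples of 1 step for 99.8% to 100% of genes within 0.0015 CPM, and the recovered whole numbers served only edgeR 4.0.16, as an alternative. The deposited unit is CPM, so limma 3.58.1 (trend, R 4.3.3) on log2(CPM + 1), fitted with 4 group means over all 10 libraries, was the main test. Positions and exon lengths came from GENCODE 29 (58039 identifiers matched). The procedure was tested on simulated data in which few genes changed, and equally in both lines. That setting does not cover KYSE-410, where 49.9% of tested genes were called. Alternatives were TMM scaling, edgeR, a pseudocount of 0.1, no filter, a filter of mean 10 CPM, each comparison fitted alone, the replicate number as a block, and leaving out each library. A crossed block was added after seeing the data. The 9 genes, the lists and the tests were chosen with earlier results of these data known. Genes were named by a rule that takes all 9, the defining genes of each list, those with the smallest adjusted p of each list, and the largest line differences in the window. A result that this rule takes is not reported here, though counts over lists include it.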

Additional observations from a re-analysis of the deposited data

Results flagged for a closer look

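The genes below had a siSHIP2 effect that differed between KYSE-410 and KYSE-30 by limma's test of the difference itself, adjusted over all 20466 tested genes. Values are the KYSE-410 effect minus the KYSE-30 effect on the log2(CPM + 1) scale. Among the 11q13 genes these were CCND1 at -0.53 (adjusted p = 0.00186), ANO1 at -1.26 (adjusted p = 9.64e-05) and MYEOV at -1.25 (adjusted p = 3.40e-06). Each was called lower with siSHIP2 in KYSE-410, as were 19.3% of all tested genes, and none of these 3 was called in KYSE-30. For 45 of the 91 tested partners the effect differed, against 32.4% of all tested genes, and those below are the ones named by rule. In the cyclin D list, where 10 of 22 differed, they were CDKN2B at 1.20, CDKN2D at 0.79, CDKN1B at 0.74, RBL2 at 0.54, RB1 at 0.45, CDKN1A at -0.37 and CCNE1 at -0.84. Among the death receptor genes they included FAS at -0.80, TNFRSF1A at -0.79 and TNFRSF10A at -0.58. Around FGF19 they were FGFR2 at -0.63 and FRS2 at 0.38, and among the channel relatives ANO10 at -0.82, TPCN1 at -0.57 and JPT2 at -0.23. Around cortactin they were DNM2 at -0.98, CTTNBP2NL at 0.91, SH3PXD2A at -0.57, SH3PXD2B at -0.37, SRC at -0.37 and WASL at 0.34. In the scaffold lists they were KANK1 at -0.88, HOMER2 at -0.83, SHANK3 at -0.79, PTPRF at -0.78, ERC1 at 0.77 and HOMER3 at -0.58. Elsewhere on 11q they were INPPL1 at -0.75, LRFN4 at -0.71, GSTP1 at -0.64, SYT12 at -0.63, LRP5 at -0.50, DHCR7 at -0.398, RSF1 at 0.40 and CPT1A at -0.36. INPPL1, the siRNA target, fell to 37.4% of its siCT mean in KYSE-410 and to 62.8% in KYSE-30. Line and depth of knockdown thus cannot be told apart in any of these differences.

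Several of these limma calls were lost when 1 library was left out. FAS (adjusted p = 0.0592) and FGFR2 (adjusted p = 0.0650) were lost without KYSE-30 siSHIP2 replicate 2, SRC (adjusted p = 0.0669) without KYSE-30 siCT replicate 2, and RSF1 (adjusted p = 0.0563) without KYSE-30 siSHIP2 replicate 1. SH3PXD2A was lost without either of the last pair of libraries (adjusted p up to 0.0918). GSTP1 was lost without KYSE-30 siCT replicate 2 or either KYSE-30 siSHIP2 library (adjusted p up to 0.102). FRS2 was lost without replicate 1 of KYSE-410 siCT, KYSE-30 siCT or KYSE-30 siSHIP2 (adjusted p up to 0.136), and WASL without these or KYSE-30 siCT replicate 2 (adjusted p up to 0.118). CPT1A was lost without any 1 of 5 of the 10 libraries, SH3PXD2B of 7, JPT2 of 8 and SYT12 of 9 (adjusted p up to 0.146, 0.0863, 0.149 and 0.154). With TMM scaling WASL, FRS2 and RSF1 were lost (adjusted p = 0.169, 0.140 and 0.0833), and by edgeR WASL, FRS2, SYT12 and KANK1 (adjusted p = 0.0743, 0.0662, 0.603 and 0.404). SHANK3 moved in opposite directions, from 14.9 to 10.3 CPM in KYSE-410 and from 10.2 to 12.7 CPM in KYSE-30, where its change did not pass (limma, adjusted p = 0.112).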

How the results depend on the processing

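CCND1, ANO1, MYEOV, TPCN2 and PPFIA1 kept their KYSE-410 calls under every alternative run, and all 7 line differences kept theirs. In KYSE-410 6 of the 8 tested genes were called, 7 with TMM scaling or edgeR, and 5 to 6 without 1 library. Of all 20466 tested genes 10205 were called there, 9379 with TMM scaling, 9590 by edgeR and 8638 to 10384 without 1 library. The difference between lines called 3 of the 8, or 4 with TMM scaling or edgeR (CTTN added), and 3 to 4 without 1 library. Of all tested genes it called 6627, or 5850 with TMM scaling, 5790 by edgeR and 4852 to 7272 without 1 library. TMM scaling moved the share of higher genes among all calls from 61.3% to 43.5% in KYSE-410 and from 60.3% to 42.1% for the difference between lines. FADD turned to -0.065 (TMM) and -0.044 (edgeR) in KYSE-410, to -0.0029 and -0.0083 in KYSE-30 (-0.074 to 0.085 without 1 library), and to -0.063 and -0.035 between lines (-0.032 to 0.13 without 1 library). In KYSE-30 without 1 library CCND1 ranged from -0.049 to 0.073 and ANO1 from -0.0017 to 0.10. None of these passed in either direction. The summed level of the 9 genes became 3248, 2582, 3050.0 and 3143 CPM with TMM scaling, from 3088, 2667, 3081 and 3194 CPM in KYSE-410 siCT, KYSE-410 siSHIP2, KYSE-30 siCT and KYSE-30 siSHIP2.

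Counts in KYSE-30 rest on few libraries. All-gene calls went from 482 to 160 with TMM scaling, 78 with no filter, 0 fitted alone, 236 with the replicate block and 14 to 812 without 1 library (14 without siSHIP2 replicate 1, 16 without siCT replicate 1). Partner calls went from 4 to 2 with TMM scaling, 2 with the pseudocount of 0.1, 0 with no filter, 0 fitted alone, 2 with the replicate block and 0 to 5 without 1 library. INPPL1 gave -0.65 fitted alone, past the threshold no longer (limma, adjusted p = 0.336), and -0.72 to -0.58 without 1 library. The filter of mean 10 CPM left 9139 calls between lines, of fewer genes tested. Deviations of same-numbered libraries from their group means gave r of -0.16 to 0.09 in KYSE-410 and -0.12 in KYSE-30. With 2 libraries per group the KYSE-30 deviations mirror each other, so differently numbered libraries gave 0.12 there. With so few libraries these r cannot settle whether equal numbers mark paired cultures. The block changed no call of the 9 genes. With the numbers crossed in KYSE-30, 465 genes, 0 of the 9 and 3 partners were called.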
